A study of Mus musculus with 21 samples.

Results

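Hematopoietic stem cells (HSC) of physically active mice were compared with HSC of sedentary mice at week 12. The 6 libraries, 3 of active and 3 of sedentary mice, were taken from the labels and are 6 of the 21 libraries of the series, and all 13513 genes of the table that holds them were used. Both groups carried MMTV-PyMT, a transgene in which the mouse mammary tumour virus promoter drives the polyoma middle T antigen in mammary epithelium, so no library came from a mouse without it. RNA was taken from freshly sorted cells with a column kit for small samples, and a stranded mRNA kit served for the libraries. The labels do not give the sort gate, the form of activity, the sex of the mice or whether a library held 1 mouse or a pool. They call the libraries biological replicates, and p-values measure only the spread between these 6 libraries.

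HSC are rare cells of the bone marrow that renew themselves and give rise to all blood lineages. Along the myeloid path, promyelocytes make the proteins of primary granules and later precursors those of specific and gelatinase granules, while megakaryocytes make platelets. Multipotent progenitors that turn towards lymphocytes are known for Flt3 and Dntt, and stem cells share part of the programme of megakaryocytes, including Vwf.

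Recovered totals ran from 16406889 to 24562170 reads in 4 libraries and were 58500940 and 71473823 reads in replicate 3 of the sedentary and active groups, whose names also follow another style. Active replicate 2, numbered 6 in the labels, stood apart from the others. Its Spearman correlation with the other 5 libraries, across genes, was 0.948 to 0.978, against 0.982 to 0.996 among those 5. The value of 0.996 was that of replicate 3 of the sedentary group with replicate 3 of the active group. It held the highest value of the 6 libraries at 31.7% of genes and the lowest at 29.2%. A column with the same number in the deposited table of transplanted HSC held other reads at 13086 of 13380 shared genes (97.8%), while active replicates 1 and 3, also present there, held other reads at only 4 genes each (Ubb, Rn45s, Lars2 and Gm1821). That other column correlated with the 5 libraries at 0.987 to 0.995, lowest with active replicate 1 and highest with sedentary replicate 2. Its correlation was higher with each of the 3 sedentary libraries than with active replicate 1 or 3. Active replicates 1 and 3 also had their highest correlation with a sedentary library, replicate 3. Which column is the library of the label could not be settled, so results are given with the column of the comparison's own table, without it, and with the other column.

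All 8 HSC markers were listed. Kit, the stem cell factor receptor, was the highest of them, at 4654 to 6562 normalized counts, while Procr had 65.1 to 109 and Slamf1 43.2 to 413. Not every HSC marker was level in every library. Fgd5 had 2.57 normalized counts in active replicate 2, under the 3.86 that 3 reads are worth there, against 31.3 to 65.9 in the other libraries. Hlf had 188 in active replicate 2 against 622 to 726 in sedentary libraries. The 8 HSC markers summed to 7270 to 8048 in sedentary and 6873 to 8902 in active libraries, with 7915 in the other column. Kit made up most of this sum in every library, so the sum does not show whether the others were level. The 4 listed monocyte and macrophage markers summed to more, 13868 to 17801 and 14680 to 26602, with 11597 in the other column. Mpo, a primary granule gene, and Mki67, a proliferation gene, were above every HSC marker in all libraries, sedentary ones included. Mpo had 47693 to 180382 normalized counts and Mki67 21738 to 36903, with 47779 and 30760 in the other column. The purity of the sort was not tested. None of 4 B cell markers, 4 T and NK cell markers or 3 skeletal muscle markers was listed. The 5 listed neutrophil markers summed to 573 to 1218 normalized counts in the sedentary libraries and 1296 to 101663 in the active ones, or 1281 in the other column, and none of them was at 0 in a library. Ly6g, the sixth, was not listed. The 4 megakaryocyte markers summed to 1678 to 3030 in sedentary and 3627 to 18043 in active libraries, with 2299 in the other column.

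The comparison asked which genes of HSC differ with physical activity, and limma called none of the 13513 genes at an adjusted p-value under 0.05 (0%, smallest adjusted p-value 0.475). It also called none of 13498 genes without the column numbered 6 and none of 13366 with the other column. At an unadjusted p-value under 0.05, limma counted 905 genes with a higher level in active HSC (6.7% of those tested) and 347 with a lower one (2.57%), together 9.27%. Without the column the counts were 556 (4.12%) and 240 (1.78%), together 5.9%, and with the other column 235 (1.76%) and 122 (0.913%), together 2.67%. The active and sedentary libraries were fully separated at 1400 genes higher in active HSC (10.4%) and 1256 genes lower (9.29%), or 19.7% in either direction. Without the column, where 2 active libraries were set against 3, these were 1718 (12.7%) and 1510 (11.2%), together 23.9%, and with the other column 406 (3.04%) and 439 (3.28%), together 6.32%. A smaller group is separated more easily, so the share without the column cannot be set against the others. Of all genes tested, 6819 of 13513 had a higher mean in active HSC, against 6778 of 13498 without the column and 6669 of 13366 with the other one. The median log2 fold change of all genes was 0.0037.

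Count tests on recovered reads differed from each other. DESeq2 called 264 genes higher (1.95%) and 10 lower (0.074%) in active HSC, whereas edgeR called 0 genes and counted 1712 at an unadjusted p-value under 0.05. Without the column numbered 6, DESeq2 called 49 genes higher (0.363%) and 9 lower (0.0667%), of which 42 were among the 274. With the other column DESeq2 and edgeR called 0 in either direction, with 375 genes at an unadjusted DESeq2 p-value under 0.05, and every DESeq2 adjusted p-value printed below was then 0.999. The authors' deposited table had 223 genes at an adjusted p-value under 0.05, with 216 higher and 7 lower, and 222 of them were called by DESeq2. Of the 264 higher genes, active replicate 2 held the highest value of the 6 libraries at 249 and over 2 times both other active libraries at 107. Active replicate 1 was above every sedentary library at 261 of them, active replicate 3 at 236 and the other column at 41 of 263. Active replicates 1 to 3 entered the test that chose these genes, and the other column did not. The counts of the active replicates thus follow partly from the choice and cannot be set against that of the other column. With the same limit, the median log2 fold change of these genes was 1.52 with the column, 1.07 without it and 0.71 with the other column.

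**Figure D1:**
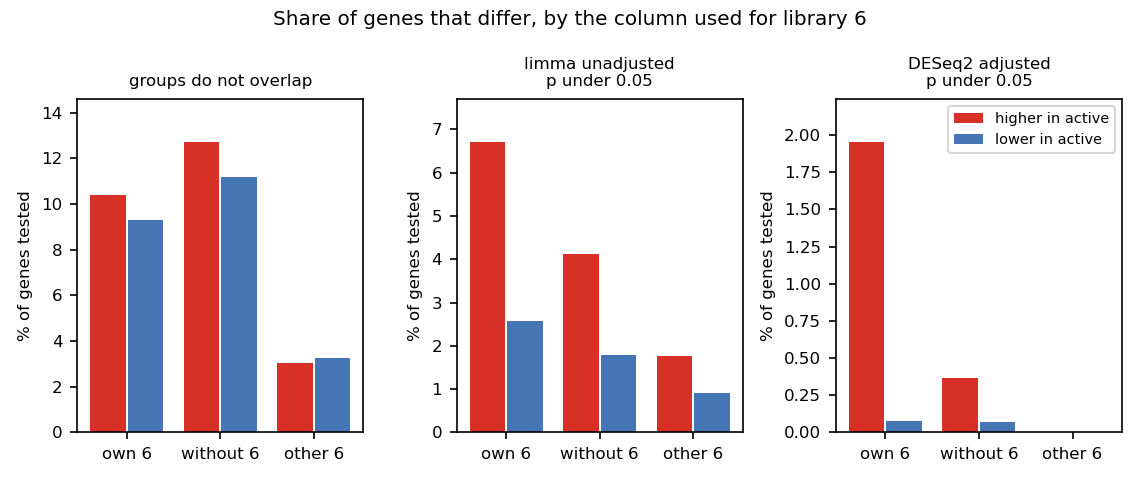
Percentage of the genes tested (y axis) that were higher (red) or lower (blue) in active HSC, with the table's own column numbered 6, without it, and with the other column, for groups that do not overlap, limma unadjusted p-values and DESeq2 adjusted p-values. With the own column, DESeq2 called 1.95% of genes higher and 0.074% lower, and with the other column 0 in both directions.

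Among genes with a mean of at least 50 normalized counts in the higher group and no overlap, those with the smallest limma p-values were not granule genes. Dio2 (GRCm38.p6 chr12:90724552-90739038) encodes the deiodinase that activates thyroid hormone. Its normalized counts were 727, 694 and 731 in sedentary replicates 1 to 3 and 1516, 1961 and 1199 in active replicates 1 to 3, against 644 in the other column. All 3 active libraries were above all sedentary ones, by a log2 fold change of 1.09 ± 0.20 (SE) (limma adjusted p-value 0.475, DESeq2 adjusted p-value 0.000921). The fold change was 0.91 without the column (DESeq2 adjusted p-value 0.000812) and 0.55 with the other one, which lay below every sedentary library.

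Fn1 (chr1:71585473-71653280), which encodes fibronectin of the extracellular matrix, had 405, 492 and 874 normalized counts in sedentary and 2499, 2590 and 1445 in active libraries, with 547 in the other column. The groups did not overlap, and active replicates 1 and 2 were close to each other. Its log2 fold change of 1.91 ± 0.37 (SE) became 1.77 without the column and 1.17 with the other one, and DESeq2 adjusted p-values were 0.000169 with the column and 0.00168 without it (limma adjusted p-value 0.475). Nrp2, a co-receptor for semaphorins and vascular endothelial growth factors, had 316, 400 and 501 in sedentary and 1100, 1350 and 772 in active libraries, with 476 in the other column. Its log2 fold changes were 1.39, 1.21 without the column and 0.89 with the other one, and DESeq2 called it with the column and without it (adjusted p-values 0.00095 and 0.00807). Pira11, of the paired immunoglobulin-like receptors, had log2 fold changes of 2.07, 1.98 and 0.93 in that order. It belongs to a family of near-identical genes among which reads could be split, so its level is uncertain. Cyp39a1, an oxysterol hydroxylase, and Ago4, an Argonaute protein, both had a log2 fold change of 1.19 with the column. Without it they had 1.12 and 1.03, and with the other column 0.68 and 0.71.

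In the other direction, Spsb1 (chr4:149896283-149955006), which encodes an adaptor of a ubiquitin ligase, had the smallest limma p-value of the genes named. Its normalized counts were 192, 206 and 175 in sedentary and 99.1, 114 and 108 in active libraries, and 182 in the other column. Within each group the libraries were close together, and the groups did not overlap. The log2 fold change was -0.82 ± 0.13 (SE), -0.87 without the column and -0.60 with the other one (limma unadjusted p-value 0.000941, limma adjusted p-value 0.475, DESeq2 adjusted p-values 0.0393 with the column and 0.106 without it). Pmepa1 and Ldlrad4 both encode membrane proteins known to dampen signalling by transforming growth factor beta. Pmepa1 had 176, 143 and 128 in sedentary and 70.8, 73.3 and 91.8 in active libraries, but 218 in the other column. Ldlrad4 had 272, 276 and 219 in sedentary and 107, 109 and 175 in active libraries, and 300 in the other column. For both, the other column was above every sedentary library, and DESeq2 called neither (adjusted p-values 0.0744 and 0.0556).

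Fads3, of the fatty acid desaturase family, had a log2 fold change of -0.85, or -0.79 without the column and -0.49 with the other one. Tspyl4 had -0.84, -0.73 and -0.67, and Klhl8 had -0.63, -0.58 and -0.42, in the same order. The lowest fold changes among the DESeq2 calls were those of 4 further genes, whose limma adjusted p-values were 0.475. Tmem121, which encodes a membrane protein, had 86.3, 64.3 and 55.6 normalized counts in sedentary and 13.1, 1.29 and 22.4 in active libraries, with 33.0 in the other column. Its log2 fold change was -2.92, or -1.92 without the column and -1.62 with the other one, and DESeq2 called it with the column and without it (adjusted p-values 0.0439 and 0.0354). The transcript 9030619P08Rik had log2 fold changes of -2.50, -1.64 and -1.21, Uchl1, a deubiquitinating enzyme, -1.45, -1.09 and -0.77, and Trp53i11 -1.16, -0.82 and -0.42. DESeq2 called 9030619P08Rik and Trp53i11 with the column and without it, and Uchl1 only with it (adjusted p-value 0.14 without).

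Genes of neutrophil granules had higher means in active HSC throughout. All 18 measured genes of specific and gelatinase granules had a higher mean in active HSC, with a median log2 fold change of 2.02, against 0.0037 over all genes. Their groups did not overlap at 9 of 18 genes (10.4% of all genes), 8 had an unadjusted limma p-value under 0.05 (6.7% of all genes), and DESeq2 called 10 (1.95% of all genes). Without the column the median was 1.26 and 17 of 17 genes tested were higher. Of these 9 did not overlap (12.7% of all genes) and DESeq2 called 2 (0.363% of all genes). With the other column the median was 0.82, 16 of 17 were higher, 3 did not overlap (3.04% of all genes) and DESeq2 called none. The mean log2 level of the list was 5.36, 6.10 and 6.02 in sedentary libraries, 7.88, 10.78 and 6.52 in active ones and 6.21 in the other column. Active replicate 3 was thus the nearest of the active libraries to the sedentary ones, and the other column lay just above the highest sedentary library.

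The promoters of 4 neutrophil genes, Ltf and Ngp of specific granules, Mpo of primary granules and S100a9 of mature neutrophils, are shown because C/EBP factors and PU.1 are known to act on granule genes. Each is the 250 bases before the annotated start, from RefSeq on GRCm38.p6, in the direction of the gene. Capitals mark matches on either strand to TTNNGNAA, a form of the C/EBP motif, in Ltf (chr9:111019042-111019291, plus strand), Ngp (chr9:110419558-110419807, plus strand) and S100a9 (chr3:90695722-90695971, minus strand), and to GAGGAAGT, a form of the PU.1 motif, in Mpo (chr11:87793534-87793783, plus strand).
Ltf: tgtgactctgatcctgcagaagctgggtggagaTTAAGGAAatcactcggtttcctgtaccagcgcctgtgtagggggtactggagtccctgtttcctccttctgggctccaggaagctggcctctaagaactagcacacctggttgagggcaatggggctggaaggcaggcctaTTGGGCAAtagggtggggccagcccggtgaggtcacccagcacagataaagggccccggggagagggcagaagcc
Ngp: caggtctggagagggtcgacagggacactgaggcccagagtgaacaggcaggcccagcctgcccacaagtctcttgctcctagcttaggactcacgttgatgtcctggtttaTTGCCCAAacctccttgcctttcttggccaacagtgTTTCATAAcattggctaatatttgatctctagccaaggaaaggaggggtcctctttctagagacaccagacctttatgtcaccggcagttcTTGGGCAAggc
S100a9: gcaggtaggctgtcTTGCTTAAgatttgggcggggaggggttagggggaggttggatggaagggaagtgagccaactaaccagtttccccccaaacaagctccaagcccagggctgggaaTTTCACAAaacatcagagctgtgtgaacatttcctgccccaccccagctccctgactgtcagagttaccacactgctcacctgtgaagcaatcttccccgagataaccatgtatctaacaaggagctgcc
Mpo: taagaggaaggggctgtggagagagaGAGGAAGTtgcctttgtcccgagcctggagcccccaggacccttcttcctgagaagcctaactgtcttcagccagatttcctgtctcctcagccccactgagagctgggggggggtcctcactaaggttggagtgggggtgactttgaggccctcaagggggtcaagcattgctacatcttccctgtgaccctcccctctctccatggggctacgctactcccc
Ltf held 2 C/EBP matches, Ngp 3, S100a9 2 and Mpo none, and Mpo held 1 PU.1 match. The C/EBP form was found in 10 of 15 promoters of the specific and gelatinase granule list, 9 of 18 of the primary granule list and 13 of 17 of the mature neutrophil list, against 28.8% of 12947 promoters of the genes tested and 36.8% of all 32851 promoters. A gene can have more than 1 promoter. The PU.1 form was found in 3 of 15, 3 of 18 and 1 of 17, against 2.55% of the promoters of genes tested and 2.44% of all. In the megakaryocyte and platelet list the C/EBP and PU.1 forms were found in 7 and 1 of 16 promoters, and in the lymphoid priming list in 8 and 0 of 22. These are matches of letters and not sites, and their forms were chosen after other forms had been looked at.

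Ltf encodes lactoferrin of specific granules. Its normalized counts were 2.98, 108 and 31.7 in sedentary libraries and 1010, 21258 and 51.5 in active ones, and 105 in the other column. Active replicate 3 lay within the sedentary range, as did the other column. The log2 fold change was 5.43 ± 2.39 (SE), 3.25 without the column and 2.88 with the other one (limma adjusted p-value 0.475, DESeq2 adjusted p-values 0.0194 with the column and 0.732 without it).

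Ngp, neutrophilic granule protein, had 75.9, 270 and 162 in sedentary libraries, 2026, 30151 and 404 in active ones and 303 in the other column. Here all active libraries and the other column lay above the sedentary ones. The log2 fold change was 4.28 ± 1.58 (SE), 2.59 without the column and 2.07 with the other one. Camp, which encodes the cathelicidin peptide, had 2.98, 14.5 and 7.69 in sedentary and 83.9, 1246 and 11.9 in active libraries, with 12.2 in the other column, so that its groups overlapped. Itgb2l, a beta integrin, had 7.44, 11.2 and 6.79 in sedentary and 89.3, 912 and 35.1 in active libraries, with 8.57 in the other column. It did not overlap, and of the genes named from this list it was the one that DESeq2 called both with the column (adjusted p-value 0.00893) and without it (0.0173). Hp, which encodes haptoglobin, had log2 fold changes of 1.20, 0.86 without the column and 0.53 with the other one.

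Primary granule genes, which are made earlier, gave smaller differences. All 15 had a higher mean in active HSC, with a median log2 fold change of 0.84, 5 without overlap (10.4% of all genes) and 4 called by DESeq2 (1.95% of all genes). The median was 0.52 without the column, where 15 of 15 were higher, and 0.27 with the other column, where 14 of 15 were higher and none was free of overlap. Mpo (chr11:87793784-87804412), which encodes myeloperoxidase, had 61649, 47693 and 68749 normalized counts in sedentary and 148714, 180382 and 89482 in active libraries, and 47779 in the other column. The active libraries were all above the sedentary ones, while the other column was next to the lowest sedentary library. The log2 fold change was 1.19 ± 0.30 (SE), 0.97 without the column and 0.55 with the other one (limma adjusted p-value 0.475, DESeq2 adjusted p-values 0.00238 with the column and 0.0299 without it). Fcnb, a ficolin of granules, had 19.4, 46.6 and 43.4 in sedentary and 309, 1124 and 68.7 in active libraries, with 33.0 in the other column. Gstm1, a glutathione transferase, had a log2 fold change of 1.82, or 1.19 without the column and 0.76 with the other one, and DESeq2 did not call it. The list also held Calr, which encodes a chaperone that is not confined to granules. Calr had 68013, 57791 and 63320 in sedentary and 73039, 85851 and 64032 in active libraries, with 59728 in the other column, and its groups overlapped.

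Genes of mature neutrophils had the same sign at 18 of 18 members, with a median of 1.41, 8 without overlap (10.4% of all genes) and 4 called by DESeq2 (1.95% of all genes). Without the column 16 of 18 were higher with a median of 0.85. With the other column 17 of 18 were higher with a median of 0.57 and 1 without overlap (3.04% of all genes). S100a9, a subunit of calprotectin, had 208, 358 and 181 in sedentary and 2438, 29980 and 374 in active libraries, and 410 in the other column. The lowest active library was 374 against 358 in the highest sedentary one. Its partner S100a8 had 283, 468 and 264 in sedentary and 2358, 19028 and 454 in active libraries, so that active replicate 3 was below the highest sedentary library.

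The 3 neutrophil lists together took 0.869%, 0.721% and 0.895% of the reads in sedentary libraries and 1.55%, 2.51% and 0.985% in active ones. These shares include the reads of Calr, so they are not shares of granule genes alone. In bulk samples, more cells of a type and more RNA per cell cannot be told apart. The part of mature neutrophils or their precursors in the sort was not tested, and their markers are given above.

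**Figure D2:**
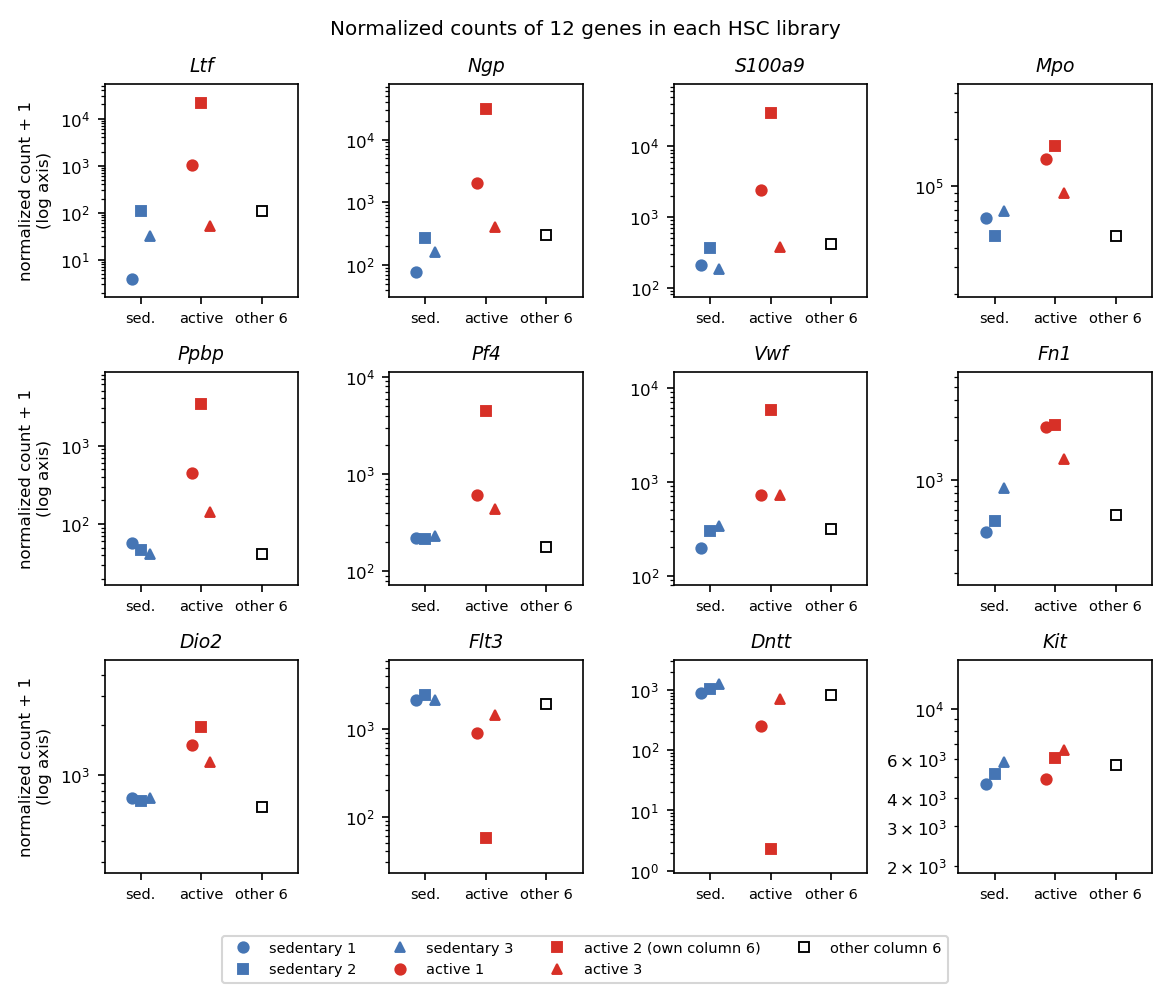
Normalized count + 1 on a log axis for 12 genes in the 3 sedentary (blue) and 3 active (red) libraries, with the other column numbered 6 as an open square. Active replicate 2 (red square) is the highest point for Ltf, Ngp, S100a9, Ppbp, Pf4 and Vwf and the lowest for Flt3 and Dntt, while the Kit values of the groups overlap.

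The stefin A genes, a cluster of cysteine protease inhibitors of neutrophils, were near the floor in most libraries. Of 7 measured, 6 had a higher mean in active HSC and 1 did not overlap (10.4% of all genes), and DESeq2 called none. The median log2 fold change was 3.01, the value of Stfa1, or 1.49 without the column and 1.12 with the other one, over 6 and 5 measured genes. BC100530 had 0, 0 and 7.24 normalized counts in sedentary and 68.6, 716 and 3.73 in active libraries, with 4.89 in the other column. Stfa1 had 7.44, 17.7 and 39.4 in sedentary and 119, 1641 and 16.1 in active libraries, with 28.1 in the other column. For both genes, replicates 1 and 2 of the active group were above all sedentary libraries and replicate 3 was within their range. Members of this cluster are near-identical, so their separate values are uncertain.

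Among 16 genes of monocytes, macrophages and dendritic cells, 13 had a higher mean in active HSC, with a median log2 fold change of 1.31, 7 without overlap (10.4% of all genes) and 4 called by DESeq2 (1.95% of all genes). The median was 0.78 without the column (12 of 15 higher). It was 0.77 with the other one, with 11 of 15 higher and 2 without overlap (3.04% of all genes). Lyz2, lysozyme of myeloid cells, had 1919, 1986 and 5299 normalized counts in sedentary and 12880, 68920 and 4565 in active libraries, with 3503 in the other column. Sedentary replicate 3 was above active replicate 3, so the groups overlapped. Csf1r, the receptor of macrophage colony-stimulating factor, had 1752, 1694 and 2249 in sedentary and 4339, 6122 and 2366 in active libraries, with 1719 in the other column, and DESeq2 called it only with the column (adjusted p-values 0.0194 and 0.211). Ly6c2, a surface antigen of monocytes from a family of similar genes, had a log2 fold change of 2.30, or 1.53 without the column and 0.89 with the other one. Ccr2, the chemokine receptor of monocytes, had 14414, 13120 and 9425 in sedentary and 14622, 6734 and 9826 in active libraries, and the groups overlapped. The 4 listed monocyte and macrophage markers summed to 13868 to 17801 in sedentary and 14680 to 26602 in active libraries, or 11597 in the other column, with none at 0. Adgre1 was not listed, and the part of such cells was not tested.

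Transcription factors of the myeloid path gave a median of 0.47, with 15 of 17 higher. Of these genes 3 were without overlap (10.4% of all genes) and DESeq2 called 2 (1.95% of all genes). The median was 0.36 without the column and 0.27 with the other one, again with 15 of 17 higher each time. Cebpe, which drives the making of specific granules, had 192, 149 and 338 in sedentary and 884, 2876 and 466 in active libraries, with 250 in the other column. The active libraries were all above the sedentary ones. Its log2 fold change was 2.31 ± 0.71 (SE), 1.59 without the column and 1.13 with the other one (limma adjusted p-value 0.475, DESeq2 adjusted p-values 0.0497 and 0.0299 with and without the column). Cebpa, which acts earlier in granulocyte fate, had a log2 fold change of 0.42, or 0.30 without the column and 0.24 with the other one, and overlapping groups.

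Megakaryocyte and platelet genes also had higher means in active HSC throughout. All 21 had a higher mean in active HSC, with a median of 1.70. Of these 11 were without overlap (10.4% of all genes), 10 had an unadjusted limma p-value under 0.05 (6.7% of all genes) and DESeq2 called 9 (1.95% of all genes). Without the column 20 of 21 were higher with a median of 0.92, 11 without overlap (12.7% of all genes) and 4 called (0.363% of all genes). With the other column 21 of 21 were higher with a median of 0.66, 5 without overlap (3.04% of all genes) and none called. The mean log2 level of the list was 6.96, 7.02 and 7.48 in sedentary libraries, 8.37, 10.52 and 8.21 in active ones and 7.34 in the other column.

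Ppbp, which encodes a platelet chemokine (chr5:90768518-90770063), had 56.6, 45.0 and 40.7 normalized counts in sedentary and 449, 3419 and 140 in active libraries, and 40.4 in the other column. Every active library was over every sedentary one, but the other column was below them all. The log2 fold change was 3.65 ± 1.13 (SE), 2.39 without the column and 1.52 with the other one (limma adjusted p-value 0.475, DESeq2 adjusted p-values 0.0103 with the column and 0.000443 without it). Pf4, platelet factor 4, had 217, 214 and 230 in sedentary and 604, 4455 and 437 in active libraries, with 179 in the other column. Vwf, which encodes von Willebrand factor and marks stem cells with a platelet bias, had 197, 294 and 333 in sedentary and 719, 5803 and 712 in active libraries, with 313 in the other column. For both genes the groups did not overlap. DESeq2 called both without the column (adjusted p-value 0.000443 each), did not call Pf4 with it (0.0679) and gave Vwf no adjusted p-value with it.

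At other surface and structural genes of the lineage, active replicate 2 was again the highest library. Gp9, a subunit of the platelet receptor for von Willebrand factor, had 10.4, 3.21 and 9.05 in sedentary and 41.4, 141 and 39.6 in active libraries, with 12.2 in the other column, all above the sedentary ones. Tubb1, the tubulin of platelets, had a log2 fold change of 3.24, or 2.46 without the column and 2.12 with the other one, from at most 4 reads in a sedentary library. Itga2b, the integrin chain of the platelet fibrinogen receptor, had 1393, 1510 and 2750 in sedentary and 2532, 10028 and 3592 in active libraries, with 2068 in the other column, and its groups overlapped. Its partner Itgb3 had a log2 fold change of 1.36, or 0.64 without the column and 0.55 with the other one. Alox12, the platelet lipoxygenase, had at most 2 reads in a sedentary library and 22.9, 156 and 6.72 normalized counts in the active ones, with 2.45 in the other column. The part of megakaryocytes or platelets in the sort was not tested, and none of their 4 markers was at 0 in a library.

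**Figure D3:**
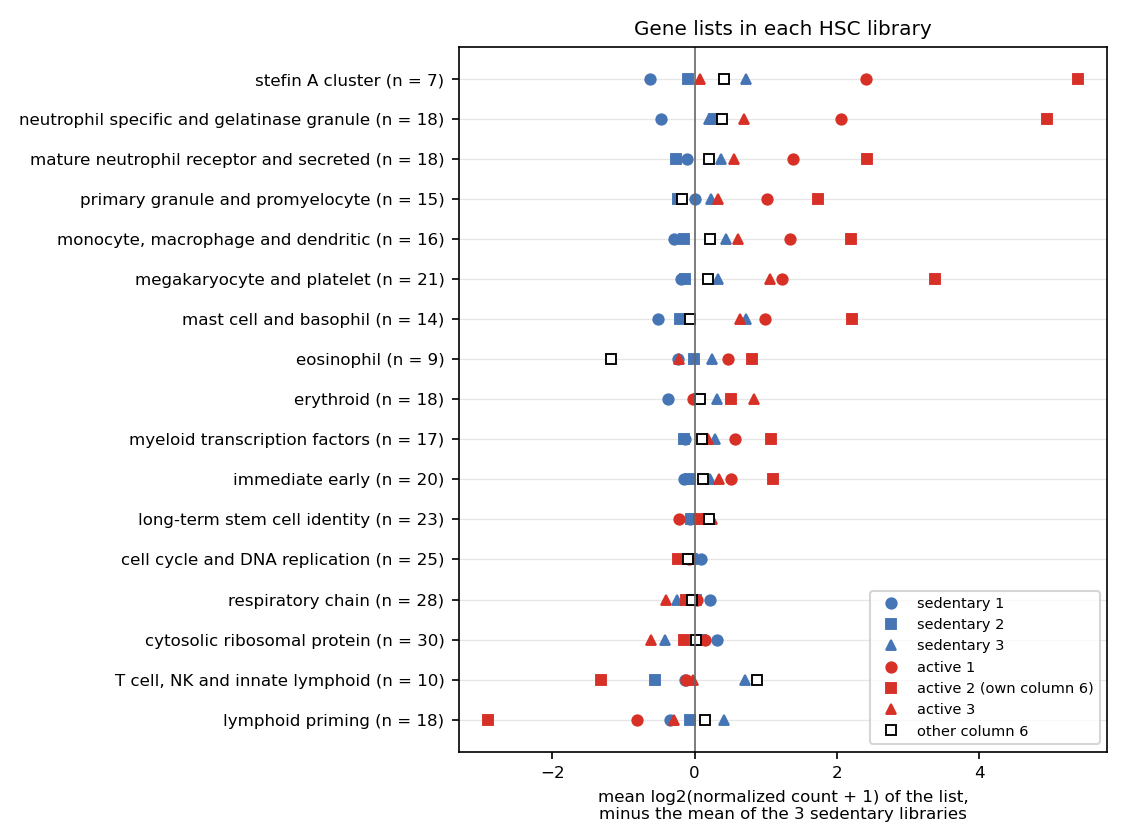
Mean log2(normalized count + 1) of 17 gene lists in each library, minus the mean of the 3 sedentary libraries (x axis), with sedentary libraries in blue, active ones in red and the other column numbered 6 as an open square. Active replicate 2 is farthest from the sedentary libraries in the neutrophil, megakaryocyte and lymphoid priming lists, and the other column stays near them.

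Mast cell and basophil genes had a higher mean at 14 of 14 members, with a median of 1.11. Of these 2 did not overlap (10.4% of all genes), a share near that of all genes. An unadjusted limma p-value under 0.05 was found at 5 (6.7% of all genes). DESeq2 called 3 with the column (1.95% of all genes) and none higher without it (0.363% of all genes). The median was 0.70 without the column and 0.49 with the other one, with 14 of 14 higher in both. Prss34, a basophil protease, had 135, 212 and 249 normalized counts in sedentary and 553, 761 and 283 in active libraries, and 286 in the other column, and DESeq2 called it with the column (adjusted p-value 0.0218). Mcpt8, another basophil protease, had a log2 fold change of 0.51, or 0.33 without the column and 0.17 with the other one. Cpa3, a mast cell carboxypeptidase, had 266, 360 and 893 in sedentary and 919, 2443 and 875 in active libraries, so that its groups overlapped. Hdc, which makes histamine, overlapped as well, with a log2 fold change of 1.58, or 0.87 without the column and 0.81 with the other one. The 4 markers of this class summed to 1146 to 2278 in sedentary and 2367 to 5380 in active libraries, or 1545 in the other column, with none at 0.

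Erythroid genes gave a median of 0.34 with 14 of 18 higher and 1 without overlap (10.4% of all genes), and 0.20 and 0.13 without the column and with the other one. Gata1, the transcription factor of erythroid cells and megakaryocytes, had 107, 124 and 295 in sedentary and 186, 833 and 361 in active libraries, with 171 in the other column. Car2, a carbonic anhydrase of red cells, had a log2 fold change of -0.48, or -0.39 without the column and -0.26 with the other one, and both genes overlapped.

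Genes of lymphoid priming lay on the other side. Of 18 measured, 16 had a lower mean in active HSC, with a median of -1.29, 7 without overlap (9.29% of all genes) and 2 with an unadjusted limma p-value under 0.05 (2.57% of all genes), and DESeq2 called none. The median was -0.48 without the column, again with 16 lower and 7 without overlap (11.2% of all genes). With the other column it was -0.28, with 15 lower and 2 without overlap (3.28% of all genes). The mean log2 level of the list was 8.38, 8.67 and 9.14 in sedentary libraries, 7.92, 5.83 and 8.44 in active ones and 8.87 in the other column.

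Flt3 (chr5:147330741-147400489), the cytokine receptor of lymphoid-primed progenitors, had 2159, 2449 and 2168 normalized counts in sedentary and 905, 55.3 and 1449 in active libraries, and 1947 in the other column. Every active library and the other column lay below the sedentary ones, and active replicate 2 far below the rest. The log2 fold change was -2.43 ± 1.23 (SE), -0.98 without the column and -0.72 with the other one (limma adjusted p-value 0.475). DESeq2 did not call it with the column (adjusted p-value 0.49) and called it without (0.0208). Dntt, which encodes the terminal transferase of early lymphocytes, had 886, 1020 and 1236 in sedentary and 252, 1.29 and 712 in active libraries, and 831 in the other column. The value of active replicate 2 was 1 read, and the other 2 active libraries and the other column also lay below the sedentary ones. Il7r, the interleukin 7 receptor, had 107, 154 and 240 in sedentary and 63.2, 25.7 and 139 in active libraries, with 245 in the other column above them all. Ikzf1, a transcription factor of lymphoid fate that stem cells also express, had a log2 fold change of -0.17, or -0.08 without the column and -0.05 with the other one, and overlapping groups.

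Genes of long-term stem cell identity had no common direction. Of 23 measured, 11 had a higher and 12 a lower mean in active HSC, with a median of -0.04. Without overlap 2 were higher (10.4% of all genes) and 2 lower (9.29% of all genes), shares near those of all genes. DESeq2 called none with the column and 1, Vwf, without it (0.363% of all genes). The median was -0.02 without the column and 0.05 with the other one. Kit (chr5:75574987-75656722) had 4654, 5131 and 5824 in sedentary and 4857, 6019 and 6562 in active libraries, with 5599 in the other column, a log2 fold change of 0.15 ± 0.17 (SE), or 0.12 both without the column and with the other one. Procr, the endothelial protein C receptor that marks HSC, had 71.5, 109 and 65.1 in sedentary and 68.6, 69.4 and 82.5 in active libraries, with 85.7 in the other column. Neither gene separated the groups.

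Active replicate 2 was far from the other libraries at several stem cell genes, in both directions. Hoxa9, a homeobox factor of stem and progenitor cells, had 1855, 1734 and 1270 in sedentary and 1162, 88.7 and 1039 in active libraries, with 1619 in the other column. Its groups did not overlap, and its log2 fold change went from -1.75 to -0.54 without the column and -0.35 with the other one. Fgd5, whose expression marks HSC, had 31.3, 65.9 and 47.1 in sedentary and 40.3, 2.57 and 51.1 in active libraries, but 103 in the other column, so that its fold change of -1.25 became -0.02 and 0.37. Slamf1, the CD150 antigen, had 43.2, 46.6 and 43.4 in sedentary and 73.0, 413 and 62.7 in active libraries, with 51.4 in the other column, all above the sedentary ones. Ly6a, the Sca-1 antigen, had 1505, 1205 and 923 in sedentary and 1227, 588 and 832 in active libraries, with 951 in the other column.

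Further regulators of self-renewal had lower means with overlap. Hlf had 622, 726 and 646 in sedentary and 320, 188 and 722 in active libraries, and 722 in the other column. Mecom had 146, 135 and 109 in sedentary and 52.3, 63.0 and 116 in active libraries, and 162 in the other column. For both transcription factors active replicates 1 and 2 were below the sedentary libraries and replicate 3 was not. Meis1, a partner of homeobox factors, had a log2 fold change of -0.45, and Hmga2, a chromatin protein, of -0.99. Without the column these were -0.32 and -0.59, and with the other one -0.18 and -0.32.

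**Figure D4:**
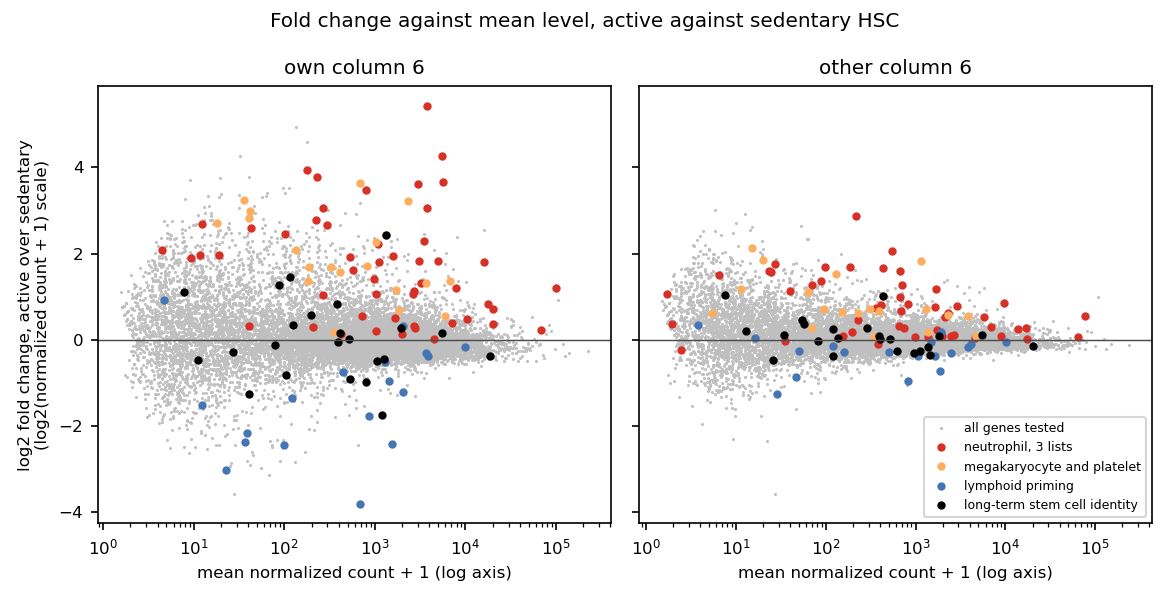
Log2 fold change of active over sedentary HSC (y axis) against the mean normalized count + 1 of the 6 libraries on a log axis, for all genes tested (grey) and 4 groups of genes marked, with the own column numbered 6 on the left and the other column on the right. Neutrophil genes reach 5.43 (Ltf) on the left and lie nearer 0 on the right, as do lymphoid priming genes, whose lowest value on the left is -3.80 (Dntt).

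Cell cycle genes were nearly level between the groups. Of 25, 21 had a lower mean in active HSC, with a median of -0.12 and 3 without overlap (9.29% of all genes), and the median was -0.09 without the column and -0.11 with the other one. Mki67, the Ki-67 antigen, had a log2 fold change of 0.32, or 0.29 without the column and 0.24 with the other one. Mcm7, of the replicative helicase, had -0.36, -0.18 and -0.15 in that order. Among D cyclins and inhibitors of cyclin-dependent kinases, 10 of 16 were higher, with a median of 0.13, and 4 were lower without overlap (9.29% of all genes). Without the column 9 of 16 were higher with a median of 0.05, and with the other column 7 of 15 with a median of -0.0076, so the direction turned. Ccnd1, cyclin D1, had 1172, 1006 and 523 in sedentary and 450, 113 and 435 in active libraries, with 578 in the other column, and its groups did not overlap although sedentary replicate 3 was near the active ones. Cdk4, its kinase, had a log2 fold change of -0.41, or -0.23 without the column and -0.18 with the other one.

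Genes of energy metabolism and translation had small differences. Of 28 genes of the respiratory chain, 26 had a lower mean in active HSC, with a median of -0.17 and 3 without overlap (9.29% of all genes), and all 28 were lower without the column (median -0.18) and with the other one (-0.13). Cycs, cytochrome c, had log2 fold changes of -0.46, -0.39 without the column and -0.30 with the other one, and Atp5b, of the ATP synthase, of -0.20, -0.14 and -0.11. All 30 ribosomal protein genes had a lower mean, with a median of -0.21, 2 without overlap (9.29% of all genes) and none at an unadjusted limma p-value under 0.05. All 30 were also lower without the column (median -0.23) and with the other one (-0.15). The median was 0.02 without active replicate 3 alone and -0.21 for replicates 1 and 2 of both groups. The mean log2 level of the ribosomal list was 14.62, 14.40 and 13.90 in sedentary and 14.45, 14.16 and 13.69 in active libraries, so that replicate 3 of each group, the deepest, was the lowest.

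Glycolysis and hypoxia genes lay on the higher side, at 20 of 22, with a median of 0.28 and 6 without overlap (10.4% of all genes). The mean log2 level of the list was 12.53, 12.36 and 12.40 in sedentary libraries and 13.25, 12.38 and 12.65 in active ones, with 12.29 in the other column. Active replicate 1 was thus the highest, and active replicate 2 lay within the sedentary range. The median was 0.41 without the column numbered 6, with 14 without overlap (12.7% of all genes). With the other column it was 0.26, with 22 of 22 higher and 1 without overlap (3.04% of all genes). Bnip3, a mitophagy receptor induced by hypoxia, had 761, 469 and 572 in sedentary and 3641, 355 and 1057 in active libraries, with 444 in the other column. Active replicate 1 was the highest and active replicate 2 the lowest of the 6. Pkm, pyruvate kinase, had log2 fold changes of 0.34, 0.27 without the column and 0.20 with the other one, and Gapdh of 0.20, 0.23 and 0.18, both with overlap.

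Receptors for cytokines and niche signals had a median of 0.25 with 23 of 27 higher, 8 higher (10.4% of all genes) and 1 lower (9.29% of all genes) without overlap, the lower one being Flt3, and 2 called by DESeq2 (1.95% of all genes). The median was 0.24 without the column and 0.14 with the other one. There 1 was higher (3.04% of all genes) and 1 lower (3.28% of all genes) without overlap. Csf2ra, the receptor chain that binds granulocyte-macrophage colony-stimulating factor, had 476, 601 and 659 in sedentary and 1599, 3808 and 746 in active libraries, with 741 in the other column, all above the sedentary ones. DESeq2 called it with the column (adjusted p-value 0.0129) and not without it (0.165). Csf2rb, the shared signalling chain, had 9284, 8857 and 10471 in sedentary and 12339, 17148 and 12340 in active libraries, with 9310 in the other column, within the sedentary range. It has a near-identical copy, Csf2rb2, with which reads could be split. Its log2 fold change was 0.53 ± 0.18 (SE), 0.38 without the column and 0.24 with the other one (limma adjusted p-value 0.475).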

How the data were processed

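RNA of sorted HSC was sequenced in 3 libraries of sedentary and 3 of active mice at week 12. The authors deposited a normalized signal per gene with a log2 fold change and a p-value, and the mm10 build is named per the submitters' processing notes. The aligner, the counter and the annotation are not given in the sources used here. The deposited signal values were whole multiples of 1 step per library for 100% of values (tolerance 0.02 reads), so reads were recovered, and 1 read was worth 0.373 to 1.61 normalized counts. The sign of the fold change in the authors' deposited table was set as active over sedentary.

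The main test was limma 3.58.1 (R 4.3.3) on log2(value + 1), for genes whose mean reached 1 in the sedentary or the active group, with Benjamini-Hochberg adjustment at 0.05. This scale understates the change of low genes. DESeq2 1.42.0, edgeR 4.0.16 and limma-voom were run on recovered reads. Limma, DESeq2 and edgeR were tested on simulated data, and limma-voom was not. An exact permutation test of 3 against 3 cannot go below 0.1 and was not used. The other column numbered 6 was joined by symbol and scaled by the median of ratios to the other 5 libraries. Named genes were the 6 smallest limma p-values in each direction without overlap, the 6 widest fold changes in each direction among DESeq2 calls, and up to 4 genes of each of 34 lists (545 genes tested), besides cell markers and stem cell genes. Members and lists were chosen with earlier results of these data known, so the lists got no test. The 21 symbols turned into dates were tested but are not named. Alternatives covered scaling, filters, pseudocounts, tests, the replicate number and each library left out.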

Additional observations from a re-analysis of the deposited data

How the results depend on the processing

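Limma's count of 0 genes past the threshold became 1 with a pseudocount of 0.1 and 274 with DESeq2. The 274 became 0 with edgeR, 0 with DESeq2 or edgeR and the other column numbered 6, and 58 with DESeq2 and 0 with edgeR without active replicate 2. Genes at an unadjusted p-value under 0.05 numbered 1252, against 1964 with DESeq2, 357 with the other column, 2284 for replicates 1 and 2 alone and 458 to 2502 without 1 library, lowest without sedentary replicate 1 and highest without active replicate 3. Groups did not overlap at 2656 of 13513 genes, against 845 of 13366 with the other column, which also set 3 libraries against 3. For replicates 1 and 2 alone the count was 8246 of 13337, and without 1 library it ran from 3228 of 13498 to 5770 of 13440. A group of 2 libraries is separated more easily than a group of 3, so these later counts cannot be set against the 2656. Whether the replicate numbers pair the libraries was not settled. Correlations of same-numbered deviations were 0.249, -0.0319 and 0.170 for replicates 1 to 3, and those of differently numbered ones ran from -0.342 to 0.163. The fit with the replicate number as a block gave 0 calls and 976 genes under 0.05 unadjusted. A term for replicate 3 gave 0 calls and 1176 genes.

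With the other column, medians of lists moved beyond 1 SD to 0.27 for primary granules, 0.57 for mature neutrophils, 0.66 for megakaryocytes, 0.016 for eosinophils, -0.017 for interferon, 0.34 for Toll-like receptors and 0.46 for leukotrienes. Replicates 1 and 2 alone gave 2.12 for mature neutrophils, 4.99 for stefins, 2.19 for monocytes, 1.62 for MHC class II and 1.20 for Toll-like receptors. Specific granules had 4.14 with edgeR and 4.27 with DESeq2, and stefins 5.28 with edgeR. The minimum mean of 20 gave 1.11 for stroma and 0.72 for mammary epithelium, which had -1.07 with a pseudocount of 0.1. Without 1 library, medians ran from -0.17 to 1.10 for B cells, 0.12 to 0.44 for interferon, -0.092 to 0.069 for fatty acid oxidation, 0.24 to 0.40 for cytokine receptors, 0.24 to 0.45 for glucocorticoids, -0.063 to 0.54 for stroma and -1.17 to 1.00 for mammary epithelium.

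Log2 fold changes reversed at 2 of 87 genes, Procr (0.012 with limma-voom, and -0.27 to 0.10 without 1 library, reversing without sedentary replicate 2) and Fgd5 (0.37 with the other column). Many of the 87 were named for their separation or fold change in these libraries, and many alternatives refit the same libraries. The low count of reversals thus follows partly from the choice. Over 20 alternatives, 25 of 34 lists kept the sign of their median. The cause of these moves was not tested. With 3 libraries a group, low counts limit what can be seen, and replicate 3 of each group is more precise than the others by its depth.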

Other observations

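Several groups of genes outside the lineages and pathways above were also measured, and limma called no gene in any of them. Genes of Toll-like receptors and their adaptors, which sense microbial products, had a higher mean in active HSC at 21 of 23 members, with a median log2 fold change of 0.78, 8 without overlap (10.4% of all genes) and 4 called by DESeq2 (1.95% of all genes). Without the column numbered 6 the median was 0.46 and DESeq2 called none. With the other column the median was 0.34 with 1 gene without overlap (3.04% of all genes). Tlr1 had 34.2, 43.4 and 48.0 normalized counts in sedentary and 145, 251 and 70.6 in active libraries, with 36.7 in the other column. Tlr13, which senses bacterial ribosomal RNA, had 92.3, 86.8 and 122 in sedentary and 440, 589 and 129 in active libraries, with 86.9 in the other column. In both genes the groups did not overlap, and the other column lay within the sedentary range.

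Genes of leukotriene synthesis and glutathione transfer were higher at 13 of 15, with a median of 0.99, 5 without overlap (10.4% of all genes) and 3 called by DESeq2 (1.95% of all genes), and the median was 0.63 without the column and 0.46 with the other one. Ltb4r1, the leukotriene B4 receptor, had 296, 190 and 257 in sedentary and 827, 1543 and 337 in active libraries, with 241 in the other column. Lta4h, which makes leukotriene B4, had a log2 fold change of 0.60, or 0.38 without the column and 0.19 with the other one.

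Clock genes had a median of 0.06 with 11 of 19 higher, and 0.14 both without the column and with the other one. Of these 3 were higher without overlap (10.4% of all genes). Bhlhe40, a repressor of the clock, had 1030, 961 and 979 in sedentary and 1982, 1544 and 1342 in active libraries, with 997 in the other column inside the sedentary range. DESeq2 called it with the column (adjusted p-value 0.0212) and not without it (0.0825). Rora, a nuclear receptor of the clock, had 10.4, 12.9 and 22.2 in sedentary and 64.3, 61.7 and 32.5 in active libraries, with 29.4 in the other column, all above the sedentary ones. Its log2 fold changes were 1.74, 1.60 and 1.39 with the column, without it and with the other one. Of the glucocorticoid response list, 12 of 16 were higher with a median of 0.31, or 0.30 without the column and 0.23 with the other one, and Mt2, a metallothionein, had 134, 122 and 64.7 in sedentary and 250, 246 and 136 in active libraries, with 72.2 in the other column.

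Immediate early genes were higher at 16 of 20 with a median of 0.55, or 0.43 without the column and 0.33 with the other one, and 3 were without overlap (10.4% of all genes). Interferon-stimulated genes were higher at 11 of 18 with a median of 0.35, which was 0.12 without the column and -0.017 with the other one. MHC class II genes were higher at 8 of 10 with a median of 0.95, or 0.83 without the column and 0.70 with the other one. Yet without overlap 1 was higher (10.4% of all genes) and 2 were lower (9.29% of all genes). H2-DMa, 1 of the lower genes, had 661, 553 and 562 in sedentary and 533, 360 and 509 in active libraries, with 702 in the other column. Cd74, the invariant chain, had 237, 170 and 771 in sedentary and 1117, 1354 and 736 in active libraries, with 469 in the other column, so that replicate 3 of the groups overlapped. MHC class I and immunoproteasome genes had a lower mean at 11 of 16 with a median of -0.21, or -0.22 without the column and -0.13 with the other one. Psmb8, an immunoproteasome subunit, had log2 fold changes of -0.54, -0.41 and -0.25 in that order. Genes of DNA methylation and chromatin had a median of -0.05 with 13 of 21 lower, and without overlap 1 was higher (10.4% of all genes) and 4 were lower (9.29% of all genes). The direction turned without the column, with a median of 0.02, and with the other column, with 0.017 and 0 genes without overlap, and 13 of 21 were higher in both. Dnmt3b, a de novo DNA methyltransferase, had 2654, 3151 and 2996 in sedentary and 1563, 667 and 2636 in active libraries, with 3012 in the other column. Targets of p53 had a median of 0.13 with 14 of 18 higher, against 10 of 18 with medians of 0.03 without the column and 0.06 with the other one, and Fas, a death receptor, had a log2 fold change of 1.79, or 1.12 without the column and 0.80 with the other one. Genes of fatty acid oxidation had a median of -0.01 with 9 of 18 higher, or -0.09 with 7 of 18 without the column and -0.07 with 5 of 17 with the other one.

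Of lists for other cell types, 7 of 16 B cell genes were measured and had a median of 0.26 with 5 higher, or 1.10 without the column and 0.72 with the other one, with 6 higher in both. The 10 of 20 T, NK and innate lymphoid genes measured had medians of -0.82, -0.34 and -0.16 in that order, with 7 lower for the first. Cd79b, of the B cell receptor, had a log2 fold change of -0.64, or -0.09 without the column and -0.14 with the other one. Cd74, also in the B cell list, went the other way, with 1.72, 1.52 and 1.21 in that order. Lck, a T cell kinase, had -0.98, -0.73 and -0.52, while Gzmb of the same list had 0.93, 0.58 and 0.46. Eosinophil genes had a median of 0.58 with 8 of 9 higher, or 0.28 without the column and 0.016 with the other one. Stroma and endothelium genes had a median of 0.07 with 6 of 12 higher, or 0.14 without the column and 0.24 with the other one. Mammary epithelium genes had -0.19 with 2 of 5 higher, 0.64 and -0.19, and skeletal muscle genes 0.46 with 3 of 3 higher, 0.31 and 0.44.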
